A study of Homo sapiens with 12 samples.

Results

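501Mel, an established human melanoma cell line, was exposed for 48 h to 10 nM TCDD or to its vehicle, DMSO, and RNA-seq was done on 2 libraries of each. These 4 samples are among the 12 of the series, which also holds 2 libraries each of cells given vemurafenib (Vem), the AhR antagonist resveratrol (RSV, 5 μM), RSV+Vem and RSV+TCDD. The response to TCDD is described across all expressed genes, by pathway and function, and the RSV libraries are used where they show how far an effect of TCDD was also present with the antagonist. The whole study rests on 1 line, so nothing here can be compared between melanomas. For RSV+TCDD the dose is stated as 10 nM in the protocol but as 1 nM in the sample label. The values are counts of read pairs per gene symbol, and levels are given as CPM, counts scaled to library size by TMM.

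TCDD is a dioxin and the reference agonist of the aryl hydrocarbon receptor, AhR, a transcription factor that waits in the cytosol. Once it has bound its ligand, AhR enters the nucleus, pairs with ARNT and binds xenobiotic responsive elements, whose core is GCGTG. Its best known targets oxidise and conjugate foreign compounds, and others, such as TIPARP and AHRR, restrain the receptor. In pigment cells AhR has also been tied to melanin synthesis and to the state of differentiation.

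TCDD changed 1082 of the 16080 genes tested (6.73%) at an adjusted p below 0.05, by the quasi-likelihood test of edgeR after Benjamini-Hochberg correction. Of these, 759 rose (4.72%) and 323 fell (2.01%). Most changes were small, with a median log2 fold change of 0.58 among the genes that rose and -0.56 among those that fell, and 214 genes moved by more than 1 on the log2 scale, 155 up and 59 down. The rises were spread over many functions, and among the lists of 12 or more tested genes the highest share called was that of the cytosolic ribosome, of which 65 of 79 mRNAs rose and none fell. Genes of cholesterol synthesis, melanin synthesis and the respiratory chain rose in part, while BMP and TGF beta feedback genes and a few YAP targets fell. Genes of DNA replication, homologous recombination, the Wnt pathway and the unfolded protein response gave no call in either direction in edgeR. At an unadjusted p below 0.05 there were 7 such genes of 45 for replication, 7 of 35 for recombination and 6 of 34 for Wnt. For the unfolded protein response there were 6 of 27, and over all genes tested 3463 of 16080. DESeq2 called 1 of the replication genes lower and none of the others.

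The vehicle libraries held 19841435 and 25076925 counts on genes and the TCDD libraries 23271945 and 14338839. RIN values were 9.4 and 9.6 with vehicle and 9.3 and 9.2 with TCDD, and the ERCC spike-ins took 0.0316% and 0.0310% of the counts on genes with vehicle and 0.0401% and 0.0457% with TCDD. Scaling to the spike-ins in place of TMM shifted the median of all genes from -0.0046 to -0.51, so "rose" and "fell" below are relative to the bulk of genes in the same library. Under that scaling 2 genes were called higher and 8 lower, and 33 of the 35 lists with a positive median had a negative one, all but MHC class II and the ribosomal protein pseudogenes. Nothing in the labels says that the 2 libraries of a group came from separate cultures, so the p-values measure the spread between these libraries, which may be technical. Of 132 named genes with a call, 55 kept it whichever of the 4 libraries was left out, 68 lost it without TCDD replicate 1, 64 without TCDD replicate 2, 40 without vehicle replicate 1 and 39 without vehicle replicate 2, each of which also leaves fewer samples. The vehicle libraries differed more from each other (chi-square per degree of freedom 22.6) than the TCDD libraries (4.61). The melanocyte markers PMEL, TYRP1, DCT, TYR and MLANA were among the high genes of all 4 libraries, T cell markers summed to at most 0.405 CPM, and the fibroblast markers summed to 16.1 and 12.9 CPM with vehicle and to 39.8 and 32.1 with TCDD, most of it LUM. In a bulk sample fewer cells of a kind and less RNA per cell cannot be told apart.

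**Figure D1:**
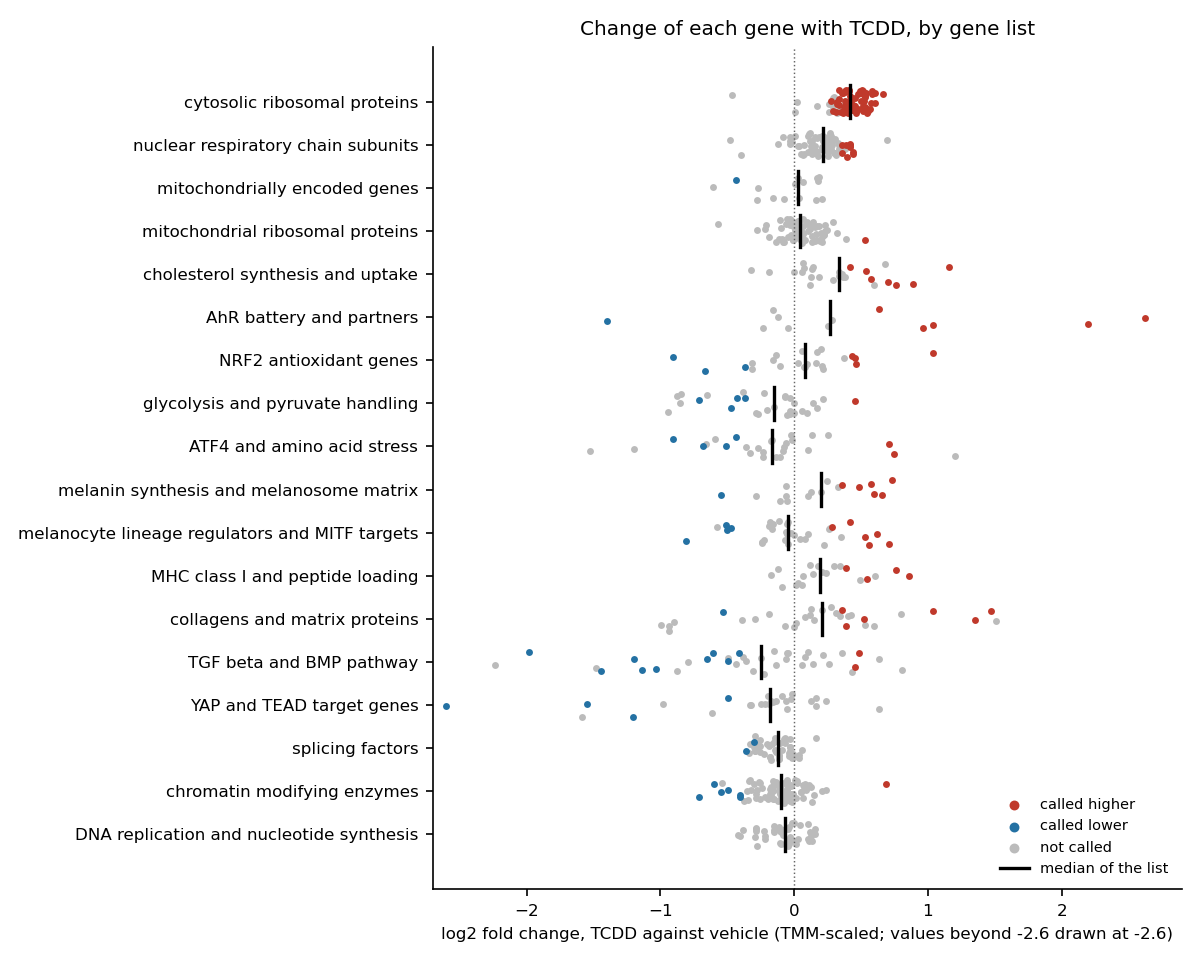
Each point is 1 gene, with its log2 fold change (TCDD against vehicle, TMM-scaled) on the x axis and its gene list on the y axis. Red and blue points were called higher and lower, and the black bar is the median of the list. The ribosomal protein genes form a tight cloud around 0.42, while most other lists straddle 0. Under spike-in scaling all points shift down by about the same amount and the ribosomal median is -0.09.

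The known AhR genes set the frame. CYP1A1, the P450 that oxidises dioxin-like compounds, stood at 23.5 and 23.1 CPM in the vehicle libraries and at 156 and 131 CPM in the TCDD libraries. The groups did not overlap, and the 6.16-fold rise had the smallest adjusted p of all genes (log2 fold change 2.62, SE 0.12, edgeR adjusted p = 3.60e-10). NQO1, a quinone reductase, rose from 287 and 300 CPM to 627 and 578, a log2 fold change of 1.04 (SE 0.09). TIPARP, an ADP-ribosyltransferase that limits AhR, rose from 55.4 and 47.7 CPM to 109 and 91.5 (0.96, SE 0.11). CYP1B1, another P450 of the family, was close to absent, with 4 and 3 counts with vehicle and 18 and 9 with TCDD. It was called higher with all 12 libraries and lost its call whenever 1 of the 4 was left out. AHRR, the AhR repressor, showed no such rise (24.6 and 21.1 against 21.5 and 19.3 CPM, log2 fold change -0.16), and neither the receptor (AHR -0.23) nor its partner (ARNT -0.05) was called. Across the list of AhR genes and partners, 5 of 12 tested genes rose and LRAT fell.

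LRAT, which esterifies retinol for storage, dropped from 18.7 and 14.5 CPM to 7.54 and 4.63, a log2 fold change of -1.40. In the same field ALDH1A2, which makes retinoic acid, rose from 2.23 and 1.82 CPM to 4.65 and 4.56. CYP27A1, a sterol hydroxylase, and RDH11, a retinal reductase, also rose, by 0.64 and 0.37. These 3 were the calls among 26 tested genes of the retinoid and steroid list, which does not hold LRAT. Among 30 genes for conjugation and export of foreign compounds, 4 glutathione transferases rose (MGST3 0.50, GSTA4 0.43, GSTO1 0.38, GSTP1 0.36) and none fell. With 1 library left out, 1 or 2 genes of the list were still called higher, 1 without either TCDD library, and MGST3 kept its call throughout.

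The promoter windows of 4 of these genes are shown because the core of the AhR element can be read in them. Each runs from 250 bases before to 50 after the RefSeq start (GRCh38.p14), 5′ to 3′ on the strand of the gene, and capitals mark GCGTG or its reverse complement CACGC. TIPARP (chr3:156674340-156674639, plus strand), NAT16 (chr7:101179187-101179486, minus strand) and ID1 (chr20:31605039-31605338, plus strand) had the most matches among the 15 windows read, 2 each. CYP1A1 (chr15:74725479-74725778, minus strand) had 1.
TIPARP: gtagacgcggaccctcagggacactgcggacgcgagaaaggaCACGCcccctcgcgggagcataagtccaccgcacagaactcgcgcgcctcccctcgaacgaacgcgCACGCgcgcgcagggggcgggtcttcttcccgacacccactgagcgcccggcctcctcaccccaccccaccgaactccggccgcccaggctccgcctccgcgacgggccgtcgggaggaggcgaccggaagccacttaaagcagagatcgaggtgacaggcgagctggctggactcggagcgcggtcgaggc
NAT16: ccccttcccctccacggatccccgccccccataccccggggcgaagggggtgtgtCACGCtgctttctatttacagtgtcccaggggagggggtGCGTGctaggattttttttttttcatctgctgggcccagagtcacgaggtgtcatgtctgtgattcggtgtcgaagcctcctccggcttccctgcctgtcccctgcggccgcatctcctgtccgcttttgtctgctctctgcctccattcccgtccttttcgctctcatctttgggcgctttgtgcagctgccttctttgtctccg
ID1: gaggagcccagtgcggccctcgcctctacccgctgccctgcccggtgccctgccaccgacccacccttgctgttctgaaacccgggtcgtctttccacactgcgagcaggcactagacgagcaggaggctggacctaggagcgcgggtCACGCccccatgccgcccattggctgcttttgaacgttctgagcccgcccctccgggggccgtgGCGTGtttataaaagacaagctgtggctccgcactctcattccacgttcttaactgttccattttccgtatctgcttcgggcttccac
CYP1A1: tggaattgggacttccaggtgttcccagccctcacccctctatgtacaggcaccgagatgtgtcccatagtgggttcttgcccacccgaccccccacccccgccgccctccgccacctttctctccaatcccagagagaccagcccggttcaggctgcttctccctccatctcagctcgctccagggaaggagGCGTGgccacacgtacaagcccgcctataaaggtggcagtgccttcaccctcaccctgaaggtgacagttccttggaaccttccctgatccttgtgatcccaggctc
Both matches in TIPARP read CACGC, and ID1, which fell, holds as many as TIPARP and NAT16, which rose. Over protein-coding genes, 10661 tested genes had a promoter in the table (82.9%), and 50.6% of these windows held at least 1 match on either strand. The share was 47.4% among 515 genes called higher, 52.5% among 236 called lower and 54.8% among 84 that rose by 1 or more on the log2 scale. These shares lie close to that of all tested genes. A match is not a measured binding site, and elements farther from the start were not searched.

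The largest changes outside the AhR list were in genes of varied kinds. Among called genes with a mean of at least 50 counts in the higher group, the largest rise was in CD96 (GRCh37 chr3:111011566-111384597), a receptor known from T and NK cells. It stood at 1.11 and 0.566 CPM with vehicle and at 5.64 and 5.51 with TCDD, while CD3E, CD3G, CD2 and CD8A had 0 counts in all 4 libraries. CST2, a secreted cystatin, rose from 1.11 and 0.971 CPM to 5.05 and 6.4 (log2 fold change 2.44). RNASE1 (chr14:21269387-21271014), a secreted ribonuclease, rose from 5.21 and 6.84 CPM to 25.2 and 28.4 (2.14). As in all 1082 called genes, the groups did not overlap in these 3. RFTN1, a lipid raft protein (2.4), NAT16 (2.32), the secreted neuronal protein LGI3 (2.29) and the cytokine IL10 (2.12) followed, with CTD-2023N9.1 (2.55) and the pseudogene NDUFV2P1 (2.08), whose reads may be shared with its parent gene.

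By the same limit on counts, the largest fall was in DDAH1 (chr1:85784164-86044046), which breaks down methylated arginines that inhibit nitric oxide synthase. It stood at 14.9 and 14.7 CPM with vehicle and at 3.07 and 3.09 with TCDD, a log2 fold change of -2.26 (SE 0.21, edgeR adjusted p = 3.21e-06). SAT1, which acetylates polyamines for export, moved the other way, from 350 and 329 CPM to 822 and 756 (1.22), and ODC1, which makes putrescine, fell slightly (-0.35). EMB, an adhesion protein, fell by 2.17 and by 3.52 without TCDD replicate 1. ZNF114 (-1.63), the chaperone CRYAB (-1.39) and ZBED6CL (-1.35) were also among the largest falls. ZBED6CL lost its call without any of the 4 libraries in turn.

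**Figure D2:**
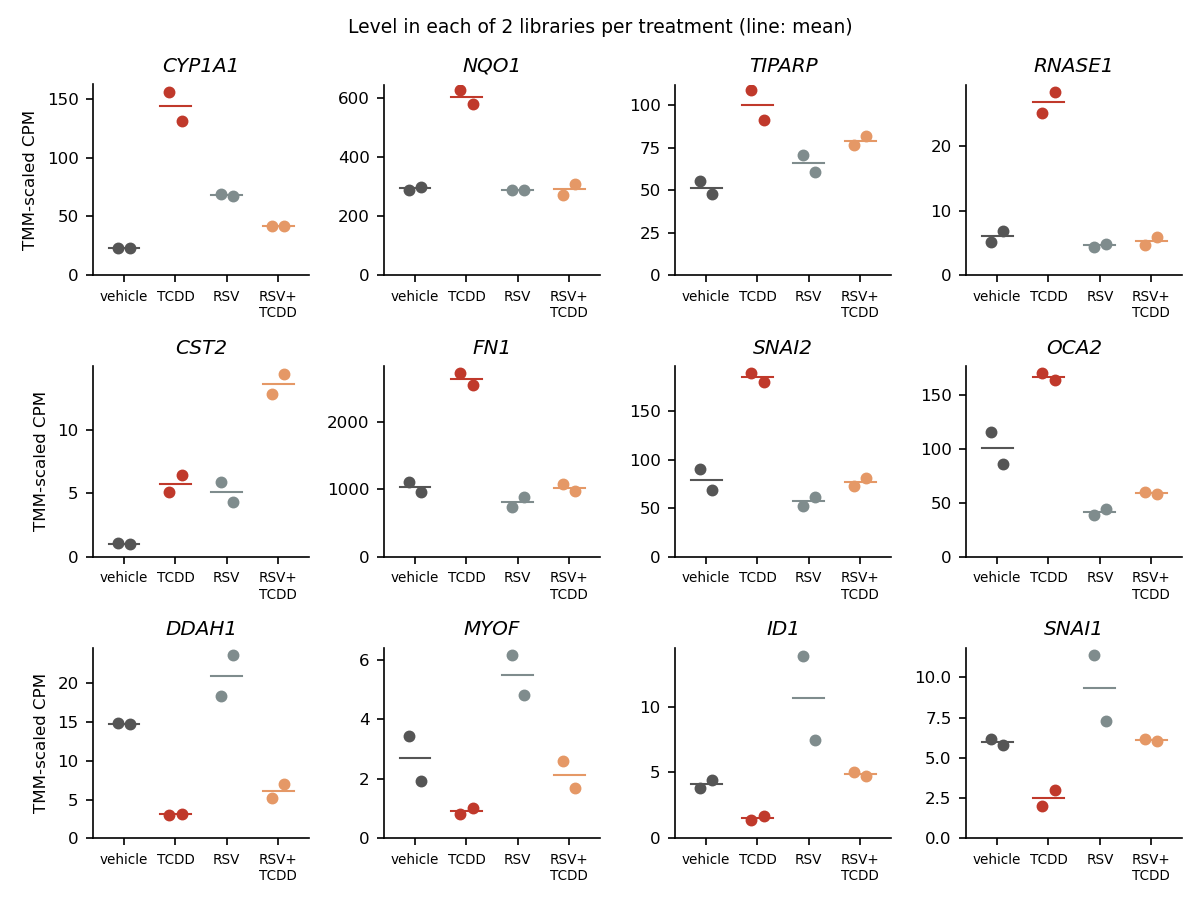
TMM-scaled CPM (y axis, from 0) of 12 genes in each of the 2 libraries with vehicle, TCDD, RSV or RSV+TCDD (x axis). Lines are means. In all 12 genes the TCDD points lie clear of the vehicle points, above them in the first 8 panels and below in the last 4, and CYP1A1 with RSV+TCDD lies below RSV alone.

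The mRNAs of cytosolic ribosomal proteins changed alike. Ribosomal proteins are made in equal numbers for each ribosome, and their mRNAs are short, abundant and known to be controlled together. Of the 79 genes, 65 rose and none fell, with a median log2 fold change of 0.42 where all tested genes had -0.0046 (under spike-in scaling, -0.09 and -0.51). The changes were small but alike: 78 were above 0, and both TCDD libraries lay above both vehicle libraries in 76, against 52.4% of all tested genes whose groups did not overlap in either direction. RPL29 went from 517 and 527 CPM with vehicle to 787 and 799 with TCDD (log2 fold change 0.60, SE 0.09). RPL13A went from 1588 and 1577 CPM to 2361 and 2390 (0.59). RPL37A went from 689 and 668 CPM to 900 and 913 (0.42). In these 3 genes replicates differed far less than the treatments did. The genes nearest to 0 or below it were RPL17 (0.01), RPS26 (0.02) and RPL36A (-0.46, at 6.07 and 6.92 CPM with vehicle and 4.96 and 4.41 with TCDD), none of them called.

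**Figure D3:**
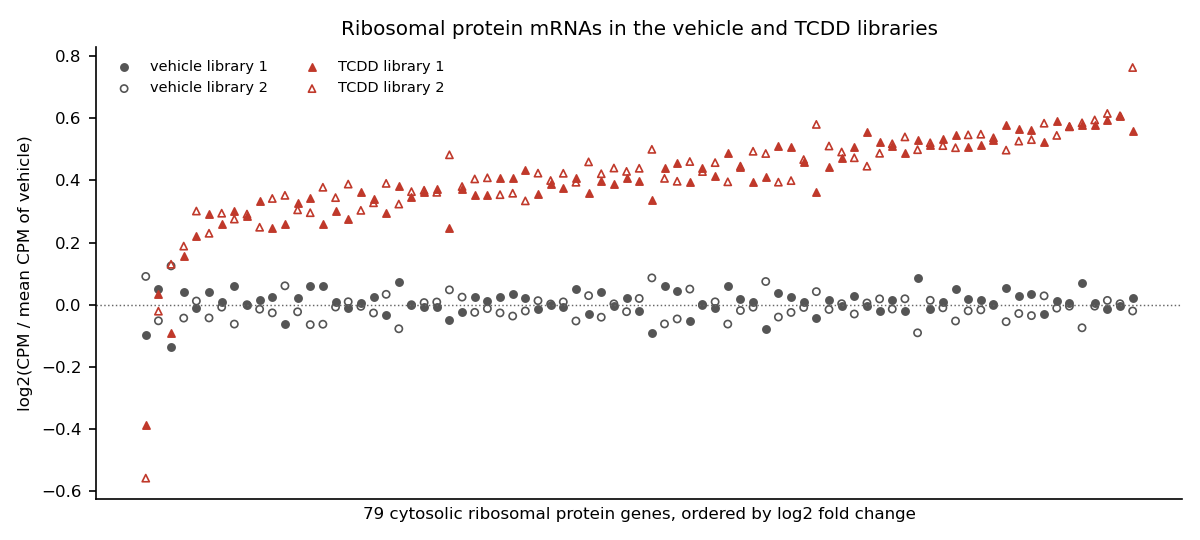
The y axis gives the log2 ratio of CPM in each library to the mean CPM of vehicle, for 79 ribosomal protein genes ordered by log2 fold change (x axis). Circles are the vehicle libraries and triangles the TCDD libraries. Triangles lie above circles in 76 genes, and at the far left RPL36A lies below.

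With 1 library left out, between 30 and 49 of these genes were called, the fewest without TCDD replicate 2, and the median stayed between 0.41 and 0.43. The 22 of 78 ribosomal protein pseudogenes that rose (none fell, median 0.53) are not separate evidence, since multi-mapped reads can reach them from the genes. In the libraries with RSV, which share no sample with the comparison above, RSV+TCDD against RSV called 625 genes higher (3.89%) and 366 lower (2.28%), 991 in all (6.16%), and of the ribosomal proteins 62 were higher and none lower, with a median of 0.40.

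Genes that act beside the ribosome were looked at after these values were seen. Of 13 tested mRNAs for elongation factors and other proteins whose mRNAs are known to begin with a pyrimidine tract, as those of ribosomal proteins do, 7 rose and none fell. EEF1A1, which brings aminoacyl-tRNA to the ribosome, went from 6247 and 6395 CPM to 9347 and 9112 (0.55), and TPT1, a tumour-associated protein of the same class, from 1107 and 1060 to 1650 and 1520 (0.55). EEF2, EIF3E, EIF3H, EIF4B and EEF1B2 rose by 0.30 to 0.43. By contrast, of 30 genes that assemble ribosomes in the nucleolus none rose and 3 fell (GAR1 -0.48, POLR1B -0.42, NOL9 -0.51), with 24 below 0. Mitochondrial ribosomal proteins moved little, with 1 of 74 called (MRPL23 0.53) and a median of 0.05. Of 20 aminoacyl tRNA synthetases, which charge tRNAs, none rose and GARS fell (-0.47), with a median of -0.14.

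The first 20 transcribed bases (RefSeq starts, GRCh38.p14) of 6 of these genes and of GAPDH are shown for the pyrimidine tract, in capitals where it runs from the first base.
RPL29: CTCTTCCggttctaggcgct
RPL13A: CTTTTCCaagcggctgccga
RPL37A: CTTTCTgggctcggacctag
RPS28: actcctctccgccagaccgc
EEF1A1: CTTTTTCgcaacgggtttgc
TPT1: CTTTTCCgcccgctcccccc
GAPDH: gtccggatgctgcgcctgcg
The tract runs for 6 or 7 bases in 5 of them. In RPS28 the first base of the RefSeq start is an a, and a run of pyrimidines begins at the next base. This ribosomal protein gene rose (149 and 159 CPM against 198 and 230, log2 fold change 0.47). GAPDH, which starts with g, was not called (-0.07). Among tested protein-coding genes other than ribosomal proteins, 533 began with C and a tract of at least 5 pyrimidines, and 46 of them rose (8.63%) and 12 fell (2.25%). Of the 10065 without such a start 4.15% rose and 2.23% fell. The share that rose also varied with expression level. With all tested genes split by mean level into 4 bins of 4020, it was 2.01%, 5.12%, 4.08% and 7.66% from lowest to highest. Genes with and without the tract were not matched for level, so the part of level in their contrast was not tested. Only 63 of the 79 ribosomal protein genes had a sequence, under the 80% set for a check of a whole list, so no share is given for them.

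Ribosomal protein mRNAs are short, and mRNA length moved with the change. Among tested protein-coding genes the median log2 fold change was 0.08 in genes with transcripts of up to 2073 bases and -0.07 in those of 5299 bases or more, the ends of 4 bins of equal size. Without the ribosomal proteins the shortest bin had 0.07, with 5.68% higher and 1.21% lower. Across genes, which are not replicates, Spearman's rho between length and change was -0.18, and between the 2 vehicle libraries (replicate 2 over 1) it was -0.15. The part of length in the ribosomal result was not tested. The median ratio of the ribosomal protein genes between the vehicle libraries was -0.02 on the log2 scale.

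The respiratory chain followed at a smaller size. The list held 72 nuclear genes for cytochrome c and for subunits of complexes I, III, IV and the ATP synthase, with none of complex II. Of these, 10 rose and none fell, with a median of 0.22 (-0.29 under spike-in scaling) and 64 above 0. COX7C, a subunit of cytochrome oxidase, went from 215 and 214 CPM to 298 and 283 (0.44), and UQCRB, of the cytochrome bc1 complex, from 163 and 144 to 216 and 199 (0.44). These mRNAs are about as short as those of ribosomal proteins, with a median of 760 bases. Their calls did not last when TCDD replicate 1 was left out (0 of 72) although the median stayed at 0.21. None of the 15 mitochondrially encoded genes rose, and the ribosomal RNA MT-RNR1 fell from 968 and 1128 CPM to 759 and 789.

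Cholesterol synthesis and uptake genes, which answer to SREBP2, rose in 7 of 26 cases with none lower and a median of 0.34 (-0.17 under spike-in scaling). SREBF2, the gene of SREBP2 itself, rose by 0.70, from 249 and 303 CPM to 427 and 469. INSIG1, which holds SREBP in the endoplasmic reticulum, rose by 0.76, and FDFT1, SQLE and FDPS by 0.42 to 0.58. The median of the list fell to 0.17 without vehicle replicate 1 and 5 genes were called. Among 26 genes of fatty acid and lipid synthesis 5 rose and none fell, among them SREBF1 (0.60, and 0.38 at the lowest with 1 library left out), FADS1 (0.44) and ACSL3 (0.42). No gene of that list was called without TCDD replicate 2, 1 without vehicle replicate 1 and 2 without either of the others.

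Redox and amino acid genes split. Of 23 NRF2 antioxidant genes 4 rose and 3 fell, with NFE2L2, the gene of NRF2, at 0.46, and FTH1, the ferritin heavy chain, at 2929 and 2845 CPM with vehicle and 3890 and 3912 with TCDD. SLC7A11, the cystine importer, went down from 101 and 90.9 CPM to 52.8 and 49.3 (-0.91, SE 0.13), GCLC, which starts glutathione synthesis, by 0.37, and ME1 to -0.67, or -0.44 without vehicle replicate 1. In the ATF4 list, 4 genes fell and 2 rose. The serine pathway moved apart: PHGDH, its first enzyme, rose from 462 and 459 CPM to 733 and 773 (0.71), whereas PSAT1 fell to -0.68 and PSPH, the last enzyme, to -0.43. SLC1A4, an alanine and serine carrier, rose by 0.75, with 917 and 625 CPM in the vehicle libraries, so that it ranged from 0.49 to 1.05 with 1 of the 4 libraries left out.

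Glycolysis genes leaned down (4 of 29 lower, 1 higher, median -0.15), but the vehicle libraries disagreed on this group. LDHA, which makes lactate, stood at 1794 and 1210 CPM with vehicle and at 1108 and 1058 with TCDD, and its fall of 0.47 became one of 0.16 without vehicle replicate 1. Against vehicle replicate 2 alone no glycolysis gene fell and the median was 0.05, and against vehicle replicate 1 alone 14 fell. Hypoxia inducible factor genes gave no call with both libraries (median -0.33), 5 higher ones with vehicle replicate 2 alone and 13 lower ones with vehicle replicate 1 alone. VEGFA, a HIF target, stood at 96.5 and 36.2 CPM in the vehicle libraries. No direction can be given to these 2 lists. CPT1A, which brings fatty acids into mitochondria, did fall, from 16.2 and 16 CPM to 8.94 and 8.67 (-0.87).

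Melanin synthesis and melanosome matrix genes rose in 6 of 17 cases and 1 fell, with a median of 0.20 against -0.0046 for all genes (-0.30 and -0.51 under spike-in scaling). OCA2, a melanosome channel that sets pH, went from 116 and 86.0 CPM to 171 and 164 (0.73, SE 0.11). PMEL, the fibril protein, went from 7860 and 7862 CPM to 11487 and 11985 (0.58), and TYR, the tyrosinase that starts melanin synthesis, from 981 and 916 to 1446 and 1420 (0.59). DCT rose by 0.66 and GPR143 by 0.49. TYRP1, at 5948 and 5511 CPM with vehicle and 6899 and 6298 with TCDD, was not called. ATP7A, the copper pump that loads tyrosinase, was lower (-0.55), with vehicle libraries at 86.9 and 61.7 CPM and a value of -0.28 without vehicle replicate 1.

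The factors that drive this lineage did not move with them. MITF, the master regulator, stood at 1197 and 939 CPM with vehicle and at 943 and 863 with TCDD (-0.24, not called), and SOX10 was at -0.06. Of 34 lineage regulators and MITF targets 6 rose and 4 fell. KIT, the receptor for stem cell factor, rose from 363 and 339 CPM to 595 and 550 (0.71), and PIR, a nuclear iron protein, by 0.62, while the transcription factors IRF4 (-0.47), TBX3 (-0.50) and NR4A3 (-0.81) fell. NR4A3 was at 230 and 134 CPM in the vehicle libraries and stood at -0.37, with no call, without vehicle replicate 1.

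Genes of invasive melanoma did not move as 1 set. Of 31 tested genes 3 rose and 2 fell. FN1 (chr2:216225163-216300796), the matrix protein fibronectin, rose from 1110 and 956 CPM to 2721 and 2544, a log2 fold change of 1.35 (SE 0.11, edgeR adjusted p = 1.44e-06). SNAI2, a transcription factor needed by melanocytes, rose from 90.0 and 69.1 CPM to 190 and 180 (1.22), and its relative SNAI1 fell from 6.17 and 5.83 to 2.03 and 3.01 (-1.29). EGFR was called higher on 3 and 5 counts against 19 and 9, and AXL had at most 2 counts in any of the 4 libraries. Among 31 tested collagens and matrix proteins 6 rose and 1 fell: LUM, a proteoglycan of connective tissue, went from 13.9 and 11.2 CPM to 38.2 and 30.8, COL6A2 rose by 1.04, and the laminin chain LAMB1 fell by 0.53. ADAM12 (0.82) and MMP2 (0.75), proteases that act on matrix, were higher. ITGA6, a laminin receptor chain, fell from 116 and 127 CPM to 55.6 and 50.4 (-1.20, SE 0.12), and its groups were far apart.

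Of the pathway lists, that of TGF beta and BMP had the most genes that fell, 9 of 37, with 2 higher and a median of -0.25. ID1, a BMP target that blocks helix-loop-helix factors, went from 3.85 and 4.41 CPM to 1.40 and 1.69 (-1.44). ID2 went from 12.3 and 9.43 CPM to 5.01 and 4.34 (-1.20, SE 0.17), and ID3 from 53.7 and 78.1 to 44.3 and 42.5. These 3 of the ID genes in the list, which also holds ID4, were called lower. SKIL, a SMAD corepressor that TGF beta induces, went from 38.8 and 33.9 CPM to 18.1 and 14.6 (-1.14), and the inhibitory SMAD6 fell to -1.03. The genes that rose were SMAD3 (0.45) and BMP1 (0.49). With 1 library left out, between 2 and 6 genes of the list were called lower, the fewest without TCDD replicate 1, and none higher.

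The YAP and TEAD list, which holds members of the pathway as well as targets, showed 4 falls among 26 and no rise. MYOF, a membrane repair protein, fell from 3.44 and 1.94 CPM to 0.812 and 1.03, AMOTL2 from 10.4 and 7.32 to 3.38 and 4.41, and LATS1, a kinase that restrains YAP, to -0.50. ANKRD1 had 11 and 5 counts with vehicle and 0 in both TCDD libraries, which allow up to 3 counts each. None of the 4 was called without TCDD replicate 1. The MAPK list had 2 rises (DUSP4 0.48, ETV5 0.32) and 1 fall, DUSP6, an ERK phosphatase, from 111 and 98.5 CPM to 57.0 and 65.6 (-0.77). These ERK feedback and output genes did not share a direction.

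Regulators of cell death and of the G1 phase moved in both directions. BMF, a BH3-only protein that promotes apoptosis, rose from 12.2 and 11.8 CPM to 36.4 and 34.9 (1.57, SE 0.12, edgeR adjusted p = 5.02e-07), and HRK, of the same class, by 0.77. Of 26 death regulators 4 rose and 1, the survival protein MCL1, fell (-0.39), and 1 of these calls was left without TCDD replicate 1. MKI67, a proliferation marker, was not called (375 and 459 against 349 and 390 CPM), none of 45 replication genes passed the test, and of 54 mitotic genes ESPL1 fell and PTTG1, its inhibitor, rose. The median of the replication genes was -0.07, but 0.05 without vehicle replicate 2 and -0.17, with 5 called lower, without vehicle replicate 1. Of 20 G1 cyclins and CDK inhibitors 1 rose and 3 fell, and none was called without either TCDD library. CDKN1C, a CDK inhibitor, rose by 1.02 at under 6 CPM, CCNE2 fell by 0.56 and CDK6 by 0.44. CDKN1A, the p53 target p21, had at most 4 counts in any of the 4 libraries.

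Class I antigen presentation rose in part. HLA-B went from 25.9 and 21.8 CPM to 43.1 and 43.6 (0.86), and HLA-F and HLA-E were higher as well, with no fall among 20 genes. HLA genes resemble each other, so their reads may be shared in part. Of 41 interferon stimulated genes only IFI6 was called (0.59), and the median was 0.15. Lysosomal genes gave 5 rises among 44, led by NPC2 (0.57) and CTSB (0.44).

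Splicing factors and chromatin enzymes leaned the other way by small amounts. Of 48 splicing factors 44 were below 0 (median -0.12), and of 12854 tested protein-coding genes 6631 were. Calls were made for 2 splicing factors (4.17%, against 6.73% of all genes tested), HNRNPM (-0.36) and HNRNPU (-0.30). With 1 of the 4 libraries left out they ranged from -0.43 to -0.29 and from -0.38 to -0.22. Of 85 chromatin enzymes 66 were below 0, with 6 lower and HDAC5 higher (0.69). SUZ12, TET3, SIRT1 and KDM2B were among those that fell, by 0.40 to 0.55, and TET2 (-0.60, or -0.21 without vehicle replicate 1) stood at 35.1 and 21.6 CPM in the vehicle libraries. Transcripts of chromatin enzymes are long (median 6724 bases), at the other end of the length trend from the ribosome. Those of the collagens and matrix proteins are as long (median 6829 bases), and that list had a median log2 fold change of 0.21. The part of length in these changes was not tested.

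Some of the TCDD effects were also present with RSV and some were not. The difference between the effect of TCDD with RSV and without was tested after these data were seen, as an interaction in the same edgeR model, and was called in 24 of the 16080 genes (0.149%). In 22 of them the effect was smaller with RSV, and 21 had risen with TCDD alone. CYP1A1 showed the largest difference, -3.32 on the log2 scale (SE 0.17, edgeR adjusted p = 1.50e-09). It stood at 69.0 and 67.5 CPM with RSV and at 41.8 and 42.2 with RSV+TCDD, a fall of 0.70. With vehicle it stood at 23.5 and 23.1 CPM, so its level with RSV alone already lay above that with vehicle. RSV against vehicle was not tested here. NQO1, with 290 and 288 CPM with RSV and 273 and 308 with RSV+TCDD, had a difference of -1.03. CD96 (-2.90), RNASE1 (-1.95), LGI3 (-1.61), LUM (-1.42), FN1 (-1.02) and BMF (-0.88) were in the same group. No ribosomal protein, no gene of cholesterol synthesis and no gene of the TGF beta and BMP list was among the 24, which does not show that their effects were equal.

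**Figure D4:**
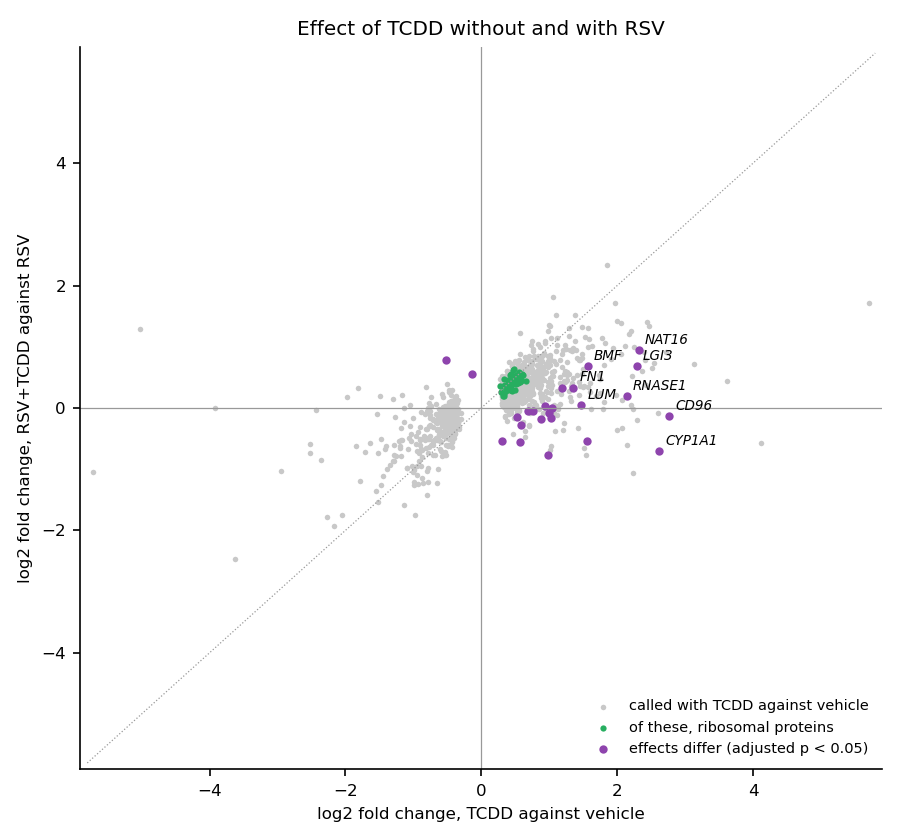
Each point is a gene, with its log2 fold change for TCDD against vehicle on the x axis and for RSV+TCDD against RSV on the y axis. Grey and green points are genes called with TCDD against vehicle. Purple points are the 24 genes whose effects differed, of which 21 were called with TCDD against vehicle. Ribosomal proteins (green) lie near the dotted line of equal effects, and CYP1A1 lies below 0 on the y axis. The grey and green genes were chosen on the x axis, which spreads them more along x than along y.

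OCA2, TYR and PMEL, in the pigment list, rose by 0.50, 0.70 and 0.63 with RSV present, with OCA2 at 39.2 and 44.6 CPM and TYR at 598 and 646 CPM in the libraries with RSV alone. DDAH1 likewise fell by 1.78, from 18.3 and 23.6 CPM to 5.22 and 6.97. SOX10, not called without RSV, was higher with it by 0.37, and the difference between both effects was not called.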

How the data were processed

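RNA-seq was done on 501Mel cells with 2 libraries for each of 6 treatments. The authors deposited raw counts of read pairs per gene symbol. Per the study's methods, libraries were made with a stranded TruSeq mRNA kit, reads were aligned to hg19 with STAR 2.4.0a, and primary alignments were counted with featureCounts (Subread 1.5.0-p3) with its setting for 1 strand. The annotation release was not given in the sources used here. Symbols that share reads (paralogs, pseudogenes, overlapping genes) may be split by this counting. A kit of this type marks the opposite strand to that setting, so 19 pairs of a lncRNA and a gene on the other strand were checked. In 18 the lncRNA had under 5% of the counts of the gene. Only genes already high with vehicle in these same counts were paired, which favours that outcome, so the check does not settle the strand.

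Counts were scaled by TMM and fitted in edgeR 4.0.16 (R 4.3.3, limma 3.58.1) with glmQLFit and glmQLFTest on all 12 libraries, 1 term per treatment, after filterByExpr, which kept 16080 symbols. The 92 ERCC rows were left out of library sizes. Calls were made at a Benjamini-Hochberg adjusted p below 0.05. The authors' tool, DESeq2 (1.42.0 here), was an alternative, as were RLE and spike-in scaling, other filters, the 4 libraries alone, a replicate block and leaving out each library. The step was tested on simulated counts. Named genes were the 10 largest rises and falls among called genes with a mean of 50 or more counts in the higher group and groups that did not overlap, up to 3 per list by the same limit on counts, and a set of anchors. Further genes of the lists, among them RPL13A, the elongation factors, SREBF2, ID3, SMAD6, PMEL and EGFR, were named after their values were seen. The lists were chosen with earlier results of these data known, and the lists beside the ribosome, MHC class II, the tract at the start and the test of the interaction were added after the values were seen. Positions are from GENCODE on GRCh37, matched for 14150 symbols (88%). Figures were drawn with matplotlib 3.10.9. The total count of 14338839 to 25076925 per library limits genes below about 50 counts, of which 88 were called. A few genes are not reported here by name.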

Additional observations from a re-analysis of the deposited data

Results flagged for a closer look

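For 11 of the named genes the effect of TCDD differed between cells with and without RSV, by the interaction in edgeR's quasi-likelihood model (Benjamini-Hochberg adjusted p below 0.05, 2 libraries per treatment). All 11 had risen with TCDD alone. The difference, as the effect with RSV minus the effect without, was -3.32 on the log2 scale for CYP1A1, -2.90 for CD96, -1.95 for RNASE1, -1.61 for LGI3, -1.42 for LUM and -1.37 for NAT16. It was -1.08 for IER5, -1.03 for NQO1, -1.02 for FN1, -0.88 for BMF and -0.82 for LIMK2. The adjusted p ran from 1.50e-09 for CYP1A1 to 0.0491 for IER5. The dose of TCDD in the libraries with RSV is 1 nM in their label and 10 nM in the protocol, so the dose and the presence of RSV cannot be told apart if the label is right. Genes were named by their change with TCDD alone, so they were selected on 1 of the effects compared.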

How the results depend on the processing

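For TCDD against vehicle, spike-in scaling left 10 calls (2 higher, 8 lower). Testing without a filter on low counts gave 695 lower genes, and asking for a change of more than 0.5 on the log2 scale in either direction left 691 (486 higher, 205 lower). With 1 library left out, 293 to 816 genes were called, 256 to 615 higher and 37 to 390 lower, with fewer samples in the fit. DESeq2 called 1052. For RSV+TCDD against RSV, 6927 genes were called with spike-in scaling, 586 with its 4 libraries alone and 330 to 956 with 1 library left out. The interaction was called for 77 genes by DESeq2, 1 with spike-in scaling, 170 without a filter, 15 with at least 10 counts in every library and 4 to 179 with 1 library left out.

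Spike-in scaling, which lowers all genes, turned 27 named rises to a log2 fold change below 0. These were MGST3 (-0.0134), GSTA4 (-0.0746), GSTO1 (-0.131), CCBL1 (-0.0708), RDH11 (-0.14), FADS1 (-0.0706), ACSL3 (-0.0906), HADH (-0.13), PC (-0.0596), SUCLG1 (-0.179), COX7C (-0.0668), UQCRB (-0.0666), COX7A2 (-0.0888), PSME1 (-0.14), CTSB (-0.0732), TPP1 (-0.097), GABARAPL1 (-0.0925), WIPI1 (-0.200), PTTG1 (-0.21), BCL2A1 (-0.0888), DUSP4 (-0.0326), ETV5 (-0.191), MERTK (-0.0876), RAB38 (-0.0751), VPS16 (-0.146), FTH1 (-0.0745) and ATOX1 (-0.129).

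With the replicate number as a block, 1186 genes were called for TCDD against vehicle (803 higher, 383 lower). The labels do not say whether these numbers pair the libraries. The correlation of replicate differences was 0.307 between vehicle and TCDD and ran from -0.488 to 0.521 over the pairs of treatments. It was 0.356 to 0.521 among RSV, RSV+Vem and RSV+TCDD, and -0.488 to -0.373 between TCDD and each of those. Whether libraries shared a batch was not tested.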

Other observations

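MHC class II genes, looked at after their values were seen, were low in these cells. Of 5 tested, HLA-DPA1 (log2 fold change 0.98) and HLA-DMA (0.95) rose and none fell in edgeR's quasi-likelihood test.

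Among 26 tested Notch genes 3 rose and none fell: HEY2, a transcription factor that Notch induces, by 0.83, and DTX1 and DTX4, ubiquitin ligases of the pathway, by 1.23 and 0.52. Of 475 genes with a ZNF symbol 10 rose and 8 fell, and of 242 solute carriers 8 rose and 12 fell. These calls made up 3.79% of the ZNF genes and 8.26% of the solute carriers, against 6.73% of all genes tested.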
